A study of Mus musculus with 12 samples.

Results

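The genes described here are kinases, adaptors, lipases, exchange factors, phosphatases and calcium channel proteins that act downstream of the high-affinity IgE receptor. They were taken by name from a list of 42 genes, which was drawn up with earlier results of these data known. The array annotation gave 40 of the 42 a probe set of their own, 1 per gene, among 19938 genes tested. The Src family kinase Lyn and the MAP kinase Mapk3 were not analysed here.

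On mast cells the receptor is built of a chain that binds IgE (Fcer1a), a chain that amplifies the signal (Ms4a2) and a pair of shared signalling chains (Fcer1g). When antigen clusters bound IgE, Src family kinases phosphorylate the receptor tails and Syk binds there. Syk phosphorylates the membrane adaptors Lat and Lat2, which gather the exchange factors, phospholipase C gamma and phosphoinositide 3-kinases. The resulting calcium entry and protein kinase C activity release granules, while MAP kinases and NFAT drive cytokine and lipid mediator production. Many of these proteins serve the antigen receptors of B and T lymphocytes as well.

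The arrays came from mast cells cultured from mouse bone marrow, with 3 arrays in each of 4 groups and 12 in all. The groups are labelled ACKR2-/- (D6-/-) at 10 weeks of culture, wild type at 10 weeks, ACKR2-/- at 2 weeks and wild type at 2 weeks, all with the strain C57BL/6. ACKR2 is an atypical chemokine receptor that binds inflammatory chemokines and clears them. All cultures were started from female mice 4 to 6 weeks old and fed interleukin 3 at 10 ng/ml and stem cell factor at 12.5 ng/ml, per the labels' protocols. Those protocols call the mast cells homogeneous after 4 weeks and state that a CD117 column was used on 2-week cultures in some experiments, without saying for which arrays. The labels call the arrays biological replicates but name no animal or culture, so the p-values measure the spread between these arrays. Values are log2 signals made by the authors with RMA, and a difference of 1 is a doubling. Probe sets differ in their response, so tests compared arrays and not the levels of different genes. Levels were set against those of other genes only to describe how bright the members were, which is a rough guide.

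Several arrays went against their labels, and the groups are therefore called by the labels of their arrays. Ackr2 itself measured 8.34, 8.16 and 8.25 on the arrays labelled ACKR2-/- at 10 weeks, against 7.88, 8.26 and 8.35 on those labelled wild type at 10 weeks. At 2 weeks it measured 8.39, 7.79 and 9.43 on the arrays labelled ACKR2-/- and 8.19, 8.29 and 8.38 on those labelled wild type. The targeted gene was thus not lower on the ACKR2-/- arrays, and where its probe set lies relative to the deleted part was not examined. The 3 ACKR2-/- arrays of 2 weeks and array 3 of the wild type 2-week group stood apart from the other 8 arrays. Kit, the stem cell factor receptor, read 9.16, 9.18 and 7.51 on the ACKR2-/- arrays of 2 weeks and 9.18 on the wild type array 3, while the other 8 arrays read at least 13.61. Fcer1a read between 4.83 and 5.47 on those 4 arrays and at least 13.74 on the other 8. Xist was between 5.77 and 6.23 on the 4 arrays and at least 13.00 on the others, and the Y-linked Kdm5d was at least 10.06 on the 4 and at most 6.42 on the others, although the protocol names female mice.

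Lymphocyte markers were higher on the same arrays, but not all markers of other blood cells were. The mean log2 signal of 9 B cell markers was 10.17, 10.18 and 12.65 on the ACKR2-/- 2-week arrays and 9.95 on wild type 2-week array 3, and at most 7.46 on the other 8. For 12 T and NK cell markers it was 11.03, 11.09 and 8.67 on the ACKR2-/- 2-week arrays and 11.16 on wild type array 3, and at most 7.10 elsewhere. For 9 MHC class II and dendritic cell markers it was 11.62 to 11.99 on these 4 arrays and at most 9.44 elsewhere. The mean of 10 monocyte and macrophage markers was 10.67 to 11.18 on the 4 and 7.31 to 10.90 on the other 8, with overlap. For 11 neutrophil markers it was 7.04 to 7.65 against 6.68 to 9.79, and for 7 eosinophil and basophil markers 6.77 to 6.86 against 6.87 to 9.89. The mean of 13 mast cell markers was 6.57 to 6.72 on these 4 arrays and 12.19 to 12.66 on the other 8. Over all genes, wild type 2-week array 3 correlated at 0.9967 with ACKR2-/- 2-week array 2 and at 0.8903 with wild type 2-week array 1. ACKR2-/- 2-week arrays 1 and 2 correlated at 0.9975 with each other. As the labels name no animal or culture, whether such close arrays are independent is not known. These are bulk samples, in which fewer cells of a type and less RNA per cell cannot be told apart.

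The pathway genes were well above the middle of the array. Their mean signal over 12 arrays ran from 7.77 for Vav3 to 12.72 for Lcp2, and 39 of 40 lay above the median gene at 8.09. Between the lowest and the highest array a member spanned a median of 1.76, against 0.75 for all genes. Within the ACKR2-/- 10-week arrays the median span was 0.24, within wild type 10-week arrays 0.25, within ACKR2-/- 2-week arrays 0.78 and within wild type 2-week arrays 1.05. The heatmap of all members shows that most of this spread lay on the 4 arrays named above.

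**Figure D1:**
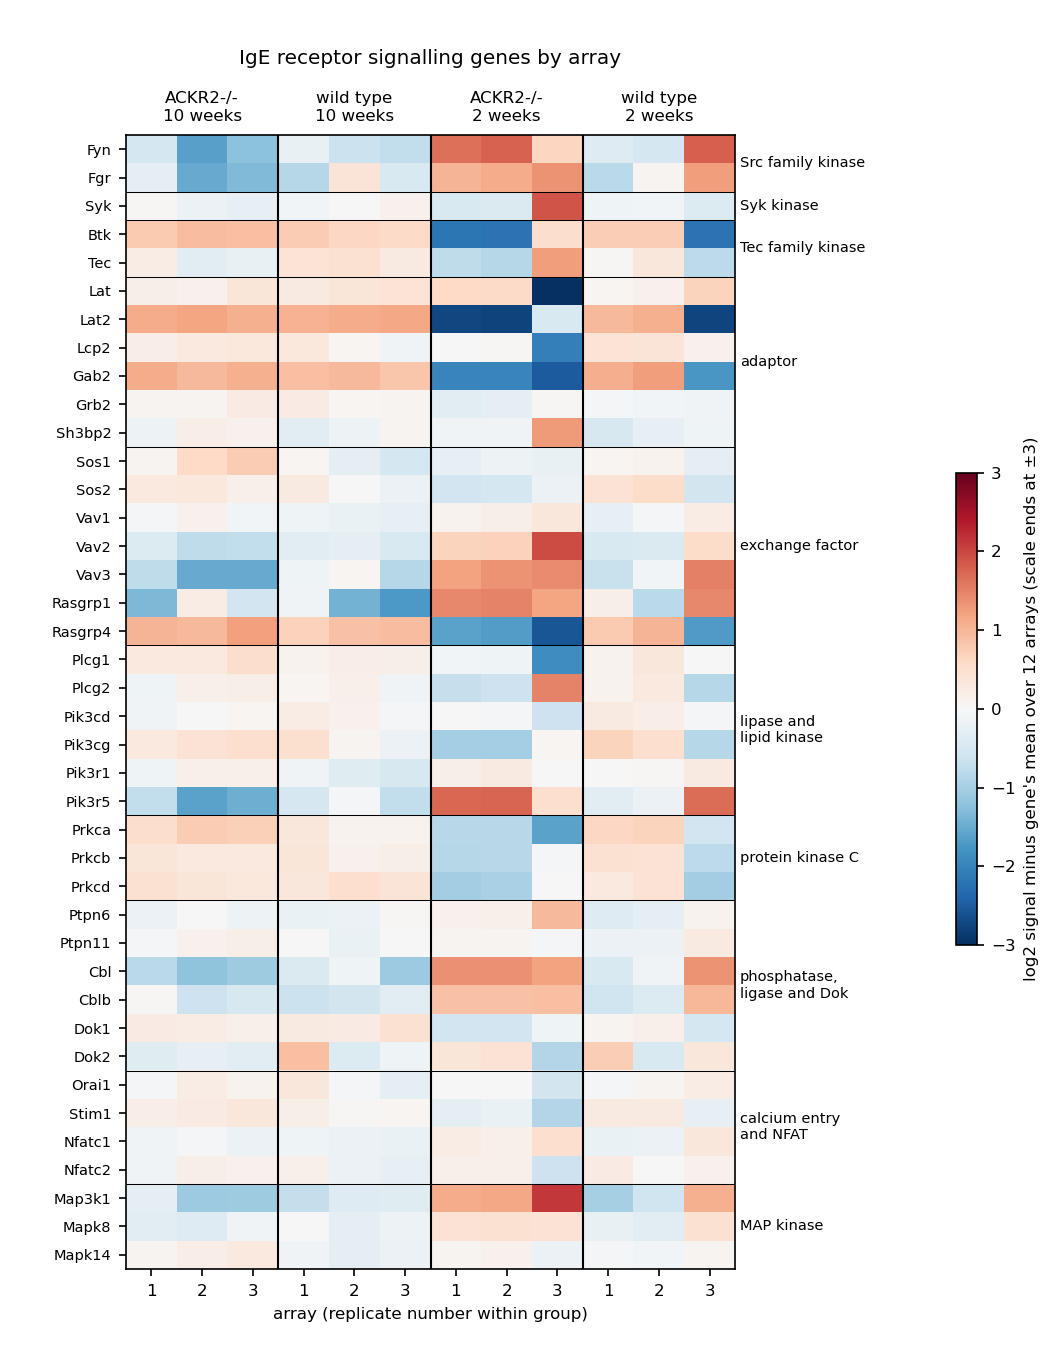
Log2 difference of each of the 40 measured pathway genes (rows, ordered by role) from that gene's mean over the 12 arrays, on each of the 12 arrays (columns, by labelled group and replicate). The 3 ACKR2-/- 2-week arrays and wild type 2-week array 3 carry most of the strong colours, for example Lat2 at 9.26, 9.20, 11.53 and 9.23 on those arrays against 12.96 or more on the other 8.

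Between 10 and 2 weeks on the ACKR2-/- arrays, 17 of 40 pathway genes passed the test, limma with Benjamini-Hochberg adjustment over all 19938 genes at an adjusted p under 0.05. Of these, 7 were higher and 10 lower at 10 weeks. Gab2, Lat2, Rasgrp4 and Prkca rose most, and Pik3r5, Vav3, Fyn, Cbl and Map3k1 fell most. Over all genes 16.8% passed, 10.5% higher and 6.33% lower. The members were mostly bright genes, and among the brighter 9969 genes tested alone, 30.6% passed and 16 members did. The members' median difference was 0.11, against 0.06 for all genes. In 15 members all 3 10-week arrays lay above the 3 2-week arrays, and in 12 they lay below. Over all genes 44.5% did not overlap, 26.7% above and 17.7% below. At an unadjusted p under 0.05 there were 26 members, against 30.2% of all genes. Week cannot be told apart from whatever else set the ACKR2-/- 2-week arrays apart. In the same contrast 11 of 13 mast cell markers were called higher, and 9 of 9 B cell, 5 of 12 T and NK cell, 9 of 9 MHC class II and dendritic cell and 6 of 10 monocyte markers were called lower. Their part in the members' changes was not tested.

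**Figure D2:**
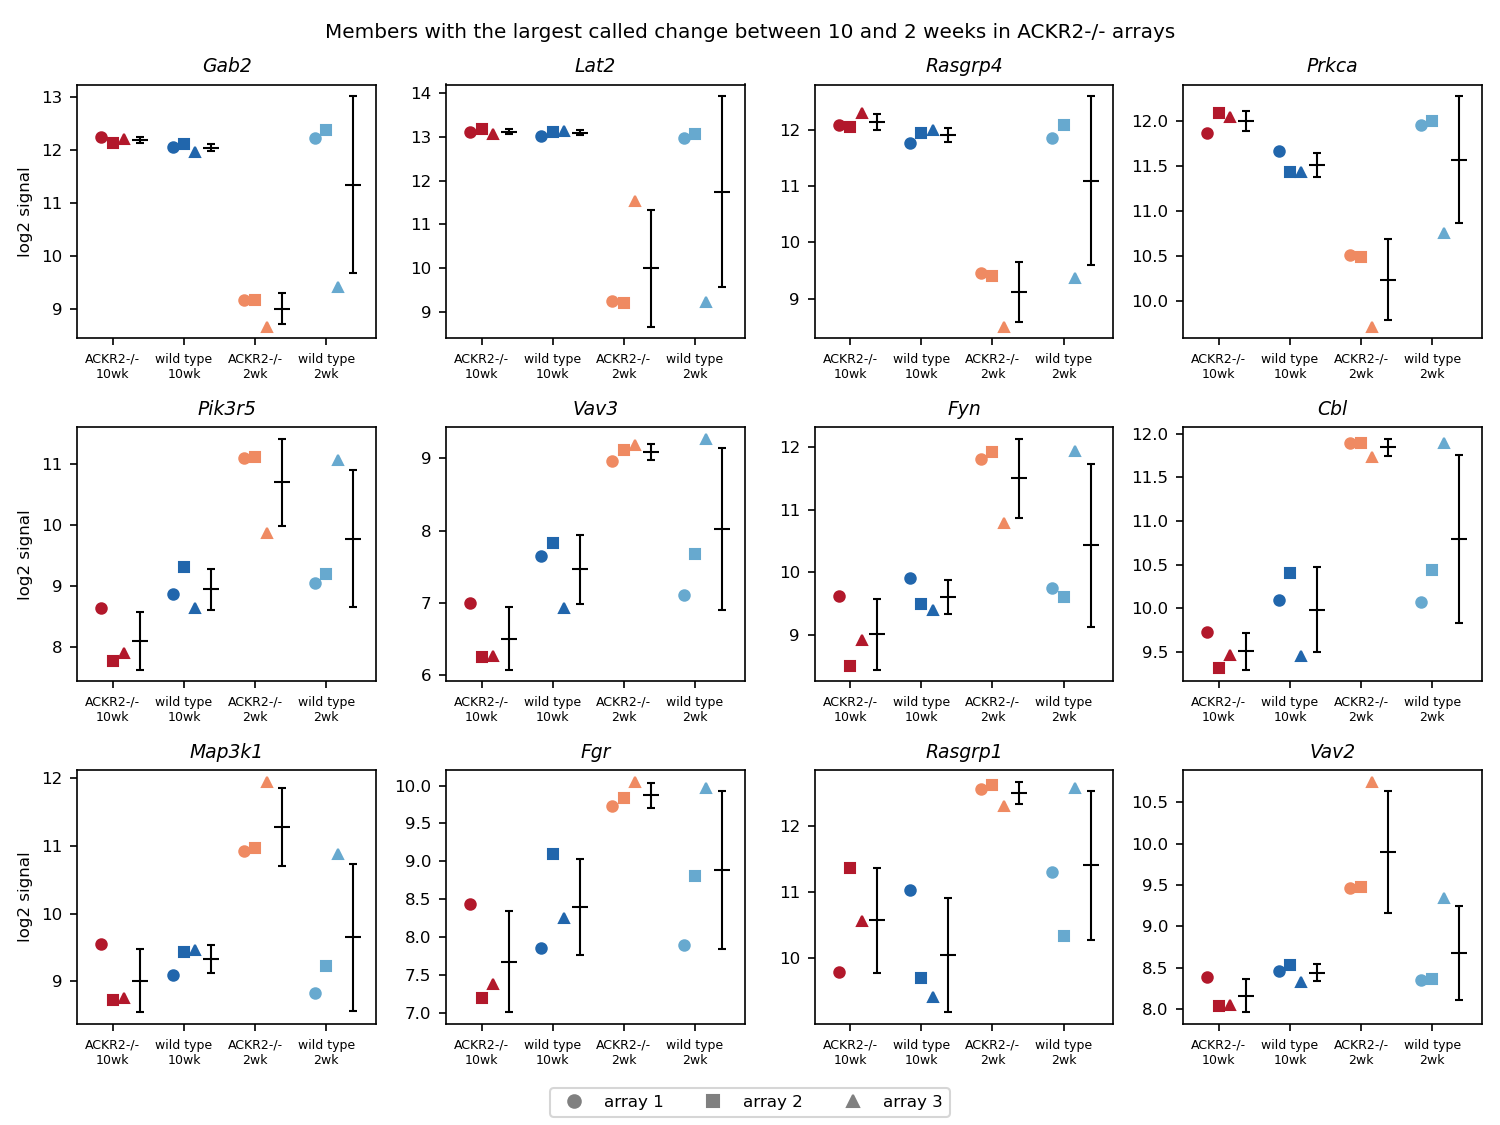
Log2 signal on each array (points) with the group mean and SD (n = 3) for the 12 pathway genes with the largest called difference between ACKR2-/- arrays of 10 and 2 weeks. Gab2 sits at 12.13 to 12.25 on the ACKR2-/- 10-week arrays and at 8.66 to 9.17 on the ACKR2-/- 2-week arrays, and in each panel wild type 2-week array 3 lies near the ACKR2-/- 2-week arrays.

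Fyn and Fgr, the Src family kinases among the members, both fell. Fyn, which phosphorylates Gab2 in mast cells, measured 9.62, 8.51 and 8.92 on the ACKR2-/- 10-week arrays, against 11.80, 11.92 and 10.78 on the ACKR2-/- 2-week arrays. The groups did not overlap, and the difference was -2.49 ± 0.57 (SE; 5.60-fold; limma adjusted p = 0.0177). Fgr, a Src family kinase of myeloid cells, measured 8.44, 7.20 and 7.38 at 10 weeks and 9.73, 9.83 and 10.05 at 2 weeks, a difference of -2.20 ± 0.51 (adjusted p = 0.0182). Its 10-week array 1 was closest to the 2-week arrays. On that array the mean of 10 monocyte and macrophage markers was 9.94, against 7.54 and 7.31 on 10-week arrays 2 and 3, and 10.67 to 11.11 on the ACKR2-/- 2-week arrays. The part of these markers in the Fgr values was not tested. Of the Src family kinases outside the list of members, Src itself, given here after its value was seen, rose by 1.35 ± 0.31 (adjusted p = 0.0174), Blk fell, as described with the rest of the pathway, and Yes1 differed by -0.44 ± 0.15 (adjusted p = 0.0723).

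Syk, the central kinase that binds the phosphorylated receptor, did not pass: it measured 10.72, 10.51 and 10.43 on the ACKR2-/- 10-week arrays and 10.22, 10.26 and 12.58 on the ACKR2-/- 2-week arrays (difference -0.46 ± 0.50, limma adjusted p = 0.598). Its 2-week arrays lay on both sides of the 10-week arrays, with array 3 alone high. Btk, a Tec family kinase that activates phospholipase C gamma, was between 11.87 and 12.01 on the 10-week arrays and at 8.92, 8.88 and 11.62 on the 2-week arrays. Its groups did not overlap, but with array 3 close to the 10-week level the difference of 2.15 ± 0.84 had an adjusted p of 0.109. Tec, its relative, differed by 0.02 ± 0.49 (adjusted p = 0.987), with 9.98 to 10.51 on the 10-week arrays against 9.53, 9.43 and 11.54 on the 2-week arrays.

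Among 6 adaptors, 2 rose and none passed as lower, against 10.5% higher and 6.33% lower over all genes. Of the brighter genes tested alone, 30.6% passed in either direction, so counts this small do not set a family apart. Gab2, a scaffold that binds phosphoinositide 3-kinase and the phosphatase Ptpn11, measured 12.25, 12.13 and 12.21 on the ACKR2-/- 10-week arrays, against 9.17, 9.17 and 8.66 on the ACKR2-/- 2-week arrays, a rise of 3.20 ± 0.62 (9.16-fold; limma adjusted p = 0.0137). All 3 arrays of each group were close together. Lat2, the membrane adaptor also called NTAL, measured 13.10, 13.17 and 13.06 at 10 weeks and 9.26, 9.20 and 11.53 at 2 weeks, a rise of 3.11 ± 0.92 (8.66-fold; adjusted p = 0.0422). Its 2-week array 3 was over 2 log2 units above arrays 1 and 2.

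The remaining adaptors gave no call. Lat, the transmembrane adaptor that assembles the phospholipase complex, had 12.49, 12.46 and 12.68 on the 10-week arrays and 12.92, 12.90 and 8.59 on the 2-week arrays (difference 1.08 ± 0.91, limma adjusted p = 0.485). Only 2-week array 3 lay below the 10-week arrays. Lcp2, the cytosolic adaptor SLP-76 that bridges Lat and Vav1, likewise had 12.73 and 12.76 on 2-week arrays 1 and 2 and 10.67 on array 3, against 12.91 to 13.04 at 10 weeks (adjusted p = 0.19). Grb2, which carries Sos1 to phosphorylated adaptors, differed by 0.32 ± 0.11 (adjusted p = 0.0847), and Sh3bp2, an adaptor that binds Syk and Vav proteins, by -0.29 ± 0.32 (adjusted p = 0.608).

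Exchange factors went both ways: of 7, 2 rose and 3 fell, against 10.5% higher and 6.33% lower over all genes. Rasgrp4, a Ras activator found mainly in mast cells, measured 12.08, 12.05 and 12.30 on the ACKR2-/- 10-week arrays, against 9.46, 9.40 and 8.50 on the ACKR2-/- 2-week arrays, a rise of 3.02 ± 0.58 (8.12-fold; limma adjusted p = 0.0137). Rasgrp1, its relative that activates Ras in T cells and mast cells, measured 9.79, 11.36 and 10.56 at 10 weeks and 12.56, 12.62 and 12.30 at 2 weeks, a change of -1.92 ± 0.59 (adjusted p = 0.0488). These relatives thus moved in opposite directions on the same arrays, and Rasgrp1 was the more scattered at 10 weeks. Sos1, which loads Ras with GTP, was 9.82, 10.34 and 10.51 at 10 weeks and 9.50, 9.60 and 9.52 at 2 weeks (0.68 ± 0.20, adjusted p = 0.0389). Its relative Sos2 had the same difference, 0.68 ± 0.26, with an adjusted p of 0.101.

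The Vav proteins are exchange factors that link receptor signals to the cytoskeleton. Vav3 measured 7.0, 6.25 and 6.26 on the ACKR2-/- 10-week arrays, against 8.97, 9.12 and 9.18 on the ACKR2-/- 2-week arrays, a change of -2.58 ± 0.47 (5.98-fold; limma adjusted p = 0.0137). Vav2 measured 8.39, 8.04 and 8.05 at 10 weeks and 9.47, 9.48 and 10.75 at 2 weeks, a change of -1.74 ± 0.35 (adjusted p = 0.0141). Vav1, the form typical of blood cells, stayed within 11.26 to 11.68 on these 6 arrays and differed by -0.21 ± 0.13 (adjusted p = 0.327).

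Of 6 lipases and lipid kinases only Pik3r5 passed, against 16.8% of all genes. Pik3r5, the p101 regulatory subunit of phosphoinositide 3-kinase gamma, measured 8.65, 7.77 and 7.91 on the ACKR2-/- 10-week arrays, against 11.11, 11.12 and 9.88 on the ACKR2-/- 2-week arrays, a change of -2.60 ± 0.53 (6.05-fold; limma adjusted p = 0.0141). Its catalytic partner Pik3cg pointed the other way without passing, at 11.80, 11.93 and 12 on the 10-week arrays and 10.49, 10.49 and 11.57 on the 2-week arrays (1.06 ± 0.40, adjusted p = 0.101). Pik3r6, a regulatory subunit gene outside the list of members and given here after its value was seen, rose by 2.38 ± 0.53 (adjusted p = 0.0167). Pik3cd, the delta catalytic subunit, and Pik3r1, the p85 alpha regulatory subunit, differed by 0.20 ± 0.16 and -0.10 ± 0.14 (adjusted p = 0.471 and 0.706). Plcg1, which makes the calcium-releasing messenger below Lat, was 11.83, 11.83 and 12.08 at 10 weeks and 11.45, 11.42 and 9.69 at 2 weeks (1.06 ± 0.38, adjusted p = 0.0814). Plcg2, the form that serves B cell receptor signalling, was 10.57, 10.86 and 10.88 at 10 weeks and 10.02, 10.08 and 12.18 at 2 weeks (0.01 ± 0.50, adjusted p = 0.992). Array 3 of 2 weeks was the lowest of the 6 for Plcg1 and the highest for Plcg2.

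All 3 protein kinase C genes among the members had 10-week arrays above every 2-week array, as did 26.7% of all genes. Of the 3, 1 passed, against 16.8% of all genes. Prkca, a calcium-dependent form, measured 11.87, 12.09 and 12.04 on the ACKR2-/- 10-week arrays, against 10.51, 10.49 and 9.72 on the ACKR2-/- 2-week arrays, a rise of 1.76 ± 0.32 (3.39-fold; limma adjusted p = 0.0137). Prkcb, the calcium-dependent beta form, differed by 0.89 ± 0.31 (adjusted p = 0.0806), and Prkcd, a form that does not need calcium, by 1.07 ± 0.37 (adjusted p = 0.0724). The other measured protein kinase C genes, 3 in number and not members, had differences below 0, and none passed. Those were Prkch with -4.28 ± 1.43 (adjusted p = 0.0657), Prkce with -0.47 ± 0.43 (adjusted p = 0.529) and Prkcq, the T cell form, with -0.12 ± 1.02 (adjusted p = 0.958).

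Phosphatases, ubiquitin ligases and Dok adaptors gave 1 rise and 2 falls among 6, against 10.5% higher and 6.33% lower over all genes. Cbl, a ubiquitin ligase that marks Syk and the receptor for degradation, measured 9.73, 9.32 and 9.47 on the ACKR2-/- 10-week arrays, against 11.90, 11.90 and 11.73 on the ACKR2-/- 2-week arrays, a change of -2.34 ± 0.40 (5.06-fold; limma adjusted p = 0.0137). Its relative Cblb measured 11.01, 10.35 and 10.49 at 10 weeks and 11.86, 11.86 and 11.87 at 2 weeks, a change of -1.24 ± 0.35 (adjusted p = 0.0349). Both ligases were lower on every 10-week array. Dok1, an adaptor that restrains Ras signalling, measured 9.56, 9.54 and 9.46 at 10 weeks and 8.74, 8.74 and 9.19 at 2 weeks, a rise of 0.63 ± 0.18 (adjusted p = 0.0401). Dok2, its relative, was 8.93 to 9.06 at 10 weeks and 9.66, 9.73 and 8.41 at 2 weeks (-0.28 ± 0.43, adjusted p = 0.73). The phosphatases Ptpn6 (SHP-1) and Ptpn11 (SHP-2) differed by -0.52 ± 0.22 and 0.04 ± 0.14 (adjusted p = 0.138 and 0.886).

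Of the calcium and NFAT genes, Stim1, the calcium sensor of the endoplasmic reticulum, passed: 10.95, 10.99 and 11.09 on the ACKR2-/- 10-week arrays, against 10.45, 10.54 and 9.86 on the ACKR2-/- 2-week arrays, a rise of 0.73 ± 0.19 (limma adjusted p = 0.0263). Orai1, the channel it opens, differed by 0.28 ± 0.19 (adjusted p = 0.38). The transcription factors Nfatc1 and Nfatc2, which calcium signals move to the nucleus, differed by -0.40 ± 0.15 and 0.18 ± 0.21 (adjusted p = 0.0909 and 0.636). Among 3 measured MAP kinase genes, Map3k1 (MEKK1, which feeds the JNK branch) measured 9.55, 8.72 and 8.76 at 10 weeks and 10.93, 10.97 and 11.95 at 2 weeks, a change of -2.27 ± 0.49 (adjusted p = 0.0149). Mapk8 (JNK1), further down that branch, fell by less, with -0.70 ± 0.19 (adjusted p = 0.0295). Mapk14 (p38 alpha) differed by 0.18 ± 0.11 (adjusted p = 0.31).

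The directions of the 17 calls held in every setting in which the genes were tested, but the calls themselves rested on a few arrays. Without ACKR2-/- 10-week array 2 the lowest adjusted p among the 17 was 0.0555, and without array 3 it was 0.0584, so that 0 of 40 members passed, and 0 of 19938 genes with limma. Without ACKR2-/- 2-week array 1, 8 members passed (7.59% of all genes), and without array 2, 9 did (6.98%). Without wild type 2-week array 3, which enters this fit only through the shared spread, 23 members passed (25.0% of all genes), the 17 among them.

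**Figure D3:**
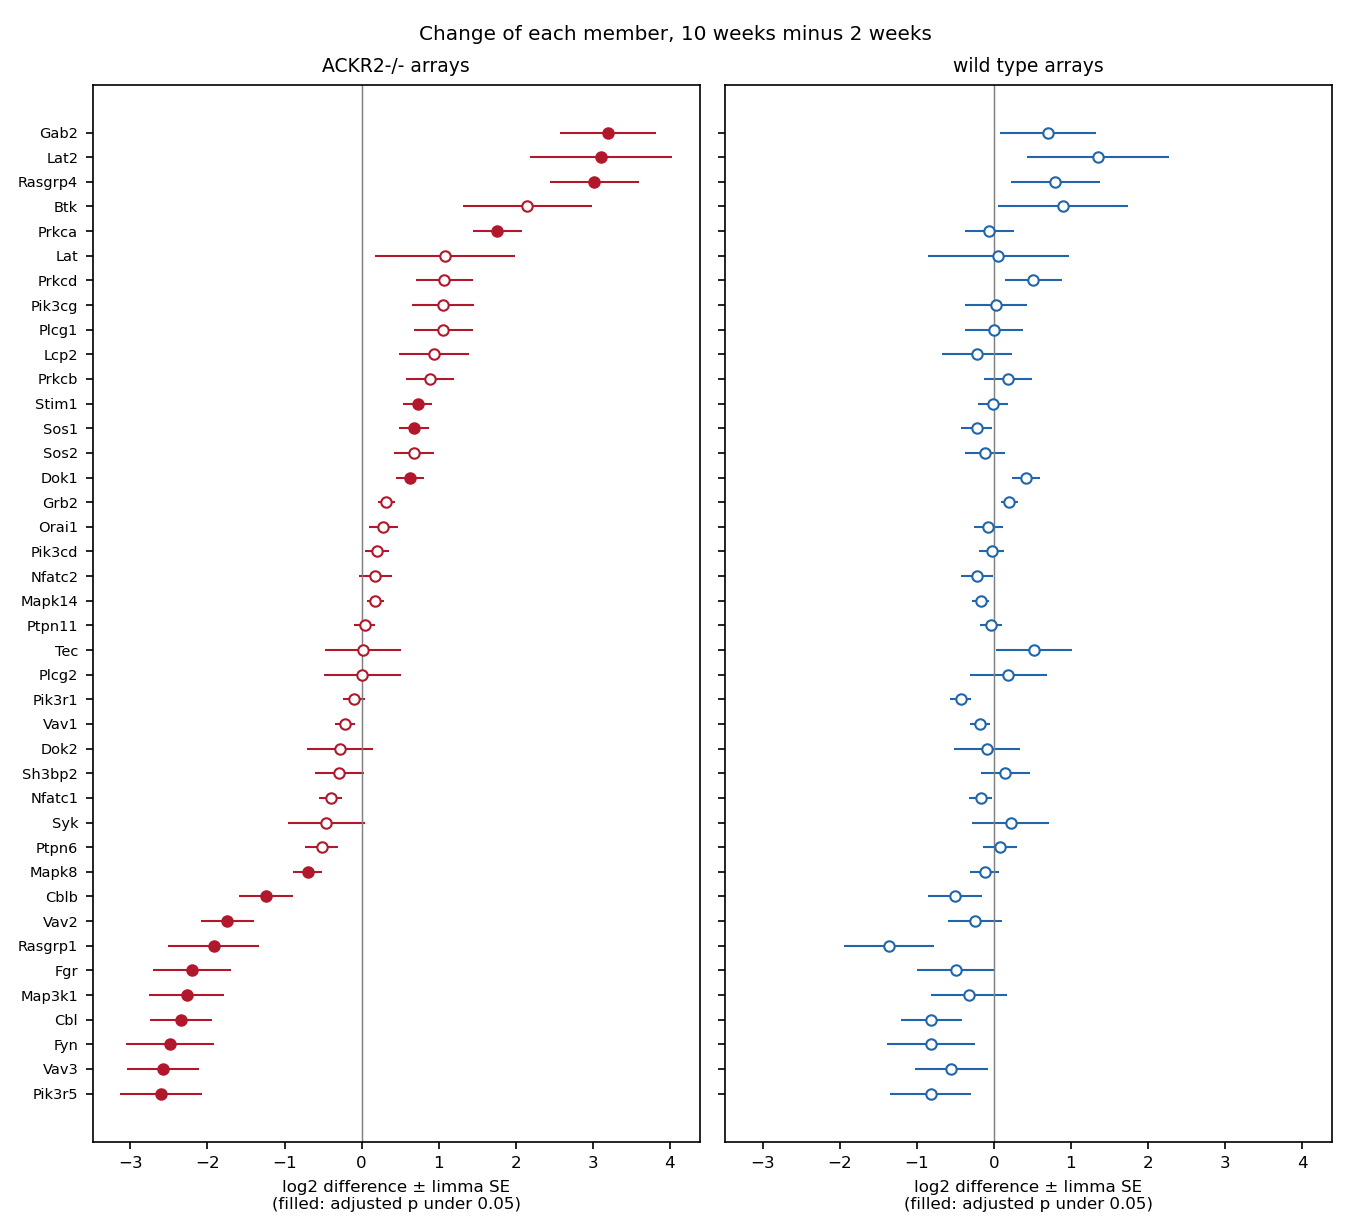
Log2 difference between 10 and 2 weeks (± limma SE) for each of the 40 pathway genes on the ACKR2-/- arrays (left) and on the wild type arrays (right), with filled points for an adjusted p under 0.05. On the ACKR2-/- arrays the differences run from -2.60 to 3.20 with 17 filled points, and on the wild type arrays from -1.36 to 1.35 with none.

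The rest of the pathway was described from a list of 94 further genes, of which 80 were measured. On the ACKR2-/- arrays, 19 of them were higher at 10 weeks and 11 lower by the same test (16.8% of all genes in either direction), with a median difference of 0.14. All 3 receptor chains rose. Fcer1a measured 14.02, 14.09 and 14.14 on the ACKR2-/- 10-week arrays and 5.25, 5.21 and 5.47 on the ACKR2-/- 2-week arrays, a rise of 8.77 ± 1.87 (limma adjusted p = 0.0148). Ms4a2 rose by 7.56 ± 1.55 (adjusted p = 0.0142). Fcer1g, which many myeloid cells also use, rose by 1.21 ± 0.29 (adjusted p = 0.021), with 12.58 to 12.79 at 10 weeks against 11.67, 11.72 and 11.09 at 2 weeks.

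Inhibitory receptors and feedback proteins gave 7 higher and 0 lower of 12 measured genes, against 10.5% higher and 6.33% lower over all genes. Lipid signalling genes gave 4 higher and 1 lower of 15, and adaptors and small GTPases 2 higher and 2 lower of 14. MAP kinase and NF-kB genes gave 1 higher and 4 lower of 14. Calcium genes gave 1 higher and 2 lower of 12, and kinases and their regulators 1 higher and 2 lower of 7. Lilrb4a, an inhibitory receptor of mast cells, rose by 4.28 ± 0.82 (limma adjusted p = 0.0137). Among the adaptors, Clnk, a mast cell relative of Lcp2, rose by 4.05 ± 0.90 (adjusted p = 0.0163). Among genes that fell, Grap and Grap2, adaptors of the Grb2 family known from lymphocytes, changed by -4.58 ± 0.91 and -2.32 ± 0.62 (adjusted p = 0.014 and 0.0294). Dgka, the T cell diacylglycerol kinase, changed by -3.04 ± 0.68 (adjusted p = 0.0167), and Blk, the Src family kinase of B cells, by -2.92 ± 0.76 (adjusted p = 0.0264).

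The ACKR2-/- 2-week arrays were not alike. Over the 40 members, arrays 1 and 2 never differed by more than 0.15, while array 3 was over 1 above their mean for 8 members and over 1 below it for 6. Those above were Btk by 2.73, Syk by 2.33, Lat2 by 2.30, Plcg2 by 2.13, Tec by 2.06, Sh3bp2 by 1.38, Vav2 by 1.27 and Pik3cg by 1.07. Array 3 was below the others by -4.32 for Lat, -2.07 for Lcp2, -1.74 for Plcg1, -1.28 for Dok2, -1.23 for Pik3r5 and -1.09 for Fyn. The same array had the highest Cd79a, a B cell receptor chain, at 12.80, against 10.58 and 10.41 on arrays 1 and 2. Cd3e, a T cell receptor chain, was 9.08 on array 3, against 13.05 and 13.13 on arrays 1 and 2, and the T cell kinase Zap70, a relative of Syk, was 8.10 against 11.34 and 11.31. Wild type 2-week array 3 had 10.25 for Cd79a, 13.15 for Cd3e and 11.38 for Zap70, and its members were never more than 0.27 from ACKR2-/- 2-week array 2 (median 0.05). The part of lymphocyte RNA in these values was not tested.

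The promoter windows of 4 of the genes that separated array 3 most clearly are shown to set the paralogues Plcg1 and Plcg2, and the kinase and adaptor Btk and Lat, side by side. Each is 250 bases before to 50 bases after a start site, written 5′ to 3′ on the gene's strand, from RefSeq on GRCm38.p6. Capitals mark a match to the GATA motif AGATAA or the ETS motif GAGGAAG, searched on both strands, and no match in these windows overlaps another.
Lat, chr7:126369519-126369818, minus strand: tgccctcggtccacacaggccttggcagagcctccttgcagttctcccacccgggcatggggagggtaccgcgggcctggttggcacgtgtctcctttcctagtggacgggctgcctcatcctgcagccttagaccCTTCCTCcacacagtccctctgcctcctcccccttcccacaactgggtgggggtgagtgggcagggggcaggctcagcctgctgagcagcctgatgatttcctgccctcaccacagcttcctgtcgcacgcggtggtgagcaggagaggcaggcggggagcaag
Btk, chrX:134583091-134583390, minus strand: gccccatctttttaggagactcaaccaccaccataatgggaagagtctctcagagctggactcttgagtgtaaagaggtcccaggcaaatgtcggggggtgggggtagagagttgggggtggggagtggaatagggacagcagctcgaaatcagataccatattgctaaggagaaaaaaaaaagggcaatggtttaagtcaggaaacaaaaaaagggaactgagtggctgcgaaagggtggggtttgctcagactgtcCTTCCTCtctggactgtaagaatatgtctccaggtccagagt
Plcg1, chr2:160731060-160731359, plus strand: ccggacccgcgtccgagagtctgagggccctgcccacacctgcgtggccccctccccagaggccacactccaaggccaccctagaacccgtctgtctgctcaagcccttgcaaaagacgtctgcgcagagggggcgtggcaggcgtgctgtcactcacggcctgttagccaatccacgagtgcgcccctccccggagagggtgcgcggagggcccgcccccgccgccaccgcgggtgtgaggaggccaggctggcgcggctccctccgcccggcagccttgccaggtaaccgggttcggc
Plcg2, chr8:117498025-117498324, plus strand: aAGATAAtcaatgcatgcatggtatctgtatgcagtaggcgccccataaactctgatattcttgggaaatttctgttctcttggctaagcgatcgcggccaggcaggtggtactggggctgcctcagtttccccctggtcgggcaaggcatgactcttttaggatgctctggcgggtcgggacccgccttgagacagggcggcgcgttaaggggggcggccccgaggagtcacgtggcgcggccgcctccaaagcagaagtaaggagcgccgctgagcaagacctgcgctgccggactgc

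In the windows printed above, the ETS letters stood at -114 from the start site in Lat and at 8 in Btk, in both on the opposite strand, and the GATA letters at -249 in Plcg2. Plcg1 held neither, and its window had the highest GC content, 72%, against 60.0% in Plcg2, 65.7% in Lat and 49.3% in Btk. RefSeq windows were found for 34 members, 47 windows in all. The GATA letters stood in 4 of the 47 (members Lcp2, Mapk14, Pik3cd and Plcg2), and in 11.2% of all 32851 windows. The ETS letters stood in 9 of the 47 (8 members, namely Btk, Cblb, Fgr, Grb2, Lat, Pik3cg, Sh3bp2 and Vav1), and in 13.6% of all windows. A match is a description of letters and no measure of binding.

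Between 10 and 2 weeks on the wild type arrays, 0 of 40 members and 0.0% of all genes passed limma's test. At an unadjusted p under 0.05 there were 3 members and 1326 genes, or 6.65%. Those members were Pik3r1, Rasgrp1 and Dok1. Pik3r1 measured 11.06, 10.79 and 10.67 on the wild type 10-week arrays and 11.18, 11.20 and 11.43 on the wild type 2-week arrays (-0.43 ± 0.14, limma adjusted p = 0.692). The groups did not overlap. Rasgrp1 measured 11.03, 9.70 and 9.41 at 10 weeks and 11.30, 10.33 and 12.57 at 2 weeks (-1.36 ± 0.59, adjusted p = 0.743). Dok1 measured 9.58, 9.57 and 9.78 at 10 weeks and 9.40, 9.46 and 8.80 at 2 weeks (0.42 ± 0.18, adjusted p = 0.743). In 3 members, Syk, Grb2 and Dok1, the 10-week arrays all lay above the 2-week arrays, and in 2, Pik3r1 and Mapk14, below, against 5.29% and 3.45% of all genes.

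Array 3 of the wild type 2-week group stood apart in the members too. On wild type 2-week arrays 1 and 2, 40 of 40 members lay within 0.5 of the range of the wild type 10-week arrays, while on array 3 only 20 of 40 did. Gab2, for example, had 12.24, 12.39 and 9.41 on the wild type 2-week arrays, against 12.06, 12.11 and 11.97 on the wild type 10-week arrays. Some members differed between the same array numbers at both weeks. Dok2 was highest on wild type array 1 at 10 weeks (10.19, against 8.89 and 9.17) and at 2 weeks (10.04, against 8.85 and 9.64). Fgr was higher on array 2 than on array 1 at 10 weeks (9.09 and 7.85) and at 2 weeks (8.80 and 7.89).

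Between ACKR2-/- and wild type arrays at 10 weeks, where the mast cell marker mean was 12.19 to 12.66 on all 6 arrays, 0 of 40 members and 0.0% of all genes passed limma's test. At an unadjusted p under 0.05 there were 3 members, and 1566 genes or 7.85%. Sos1 measured 9.82, 10.34 and 10.51 on the ACKR2-/- arrays and 9.80, 9.47 and 9.22 on the wild type arrays (0.73 ± 0.20, limma adjusted p = 0.48). All 3 ACKR2-/- arrays were above all wild type arrays, array 1 by only a little. Mapk14 measured 11.24, 11.34 and 11.43 on the ACKR2-/- arrays and 11.04, 10.87 and 10.98 on the wild type arrays (0.37 ± 0.11, adjusted p = 0.503), again without overlap. Pik3r1 measured 11.03, 11.30 and 11.32 on the ACKR2-/- arrays and 11.06, 10.79 and 10.67 on the wild type arrays (0.37 ± 0.14, adjusted p = 0.559), with array 1 of each group overlapping.

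Without overlap at 10 weeks, 9 members were above on the ACKR2-/- arrays (Btk, Gab2, Sos1, Vav1, Rasgrp4, Plcg1, Prkca, Stim1 and Mapk14) and 2 below (Tec and Dok1), against 8.61% and 5.98% of all genes. Prkca, for instance, measured 11.87, 12.09 and 12.04 on the ACKR2-/- arrays and 11.67, 11.44 and 11.43 on the wild type arrays, a difference of 0.49 ± 0.32 (limma adjusted p = 0.791). Fitted on the 10-week arrays alone, its unadjusted p was 0.00579, and 7 of 40 members had an unadjusted p under 0.05, against 10.5% of all genes in that fit, and none passed after adjustment. ACKR2-/- array 1 differed from arrays 2 and 3 in several members. Over all genes it correlated at 0.9738 and 0.9754 with those arrays, which correlated at 0.9938 with each other. With wild type 10-week arrays 1, 2 and 3 it correlated at 0.9792, 0.9847 and 0.989. The wild type 10-week arrays correlated with each other at 0.9701 to 0.9878. Pik3r5 measured 8.65, 7.77 and 7.91 on the ACKR2-/- arrays and 8.88, 9.32 and 8.65 on the wild type arrays, and Vav3 measured 7.0, 6.25 and 6.26 against 7.64, 7.83 and 6.92. In the 10-week arrays alone and without ACKR2-/- array 1, Pik3r5 passed (-1.11 ± 0.21, limma adjusted p = 0.0462), as did 2.54% of all genes.

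Mean signals of markers of other myeloid cells were lower on most ACKR2-/- arrays at 10 weeks, although no marker of these sets passed limma's adjusted test. Of all genes, 7.85% had a limma unadjusted p under 0.05 here, and the marker lists were chosen with earlier results of these data known. The mean of 7 eosinophil and basophil markers was 8.32, 7.02 and 6.87 on the ACKR2-/- arrays and 9.89, 9.82 and 8.74 on the wild type arrays, and 7 of 7 had an unadjusted p under 0.05. For 11 neutrophil markers it was 7.55, 6.83 and 6.68 on the ACKR2-/- arrays and 9.05, 9.79 and 7.88 on the wild type arrays, with 9 of 11 under 0.05. In both sets every ACKR2-/- array was below every wild type array. The mean of 10 monocyte and macrophage markers was 9.94, 7.54 and 7.31 on the ACKR2-/- arrays and 9.43, 10.90 and 10.22 on the wild type arrays (6 of 10 under 0.05). For 9 MHC class II and dendritic cell markers it was 8.93, 6.78 and 6.85 against 8.91, 9.44 and 9.03 (3 of 9 under 0.05), and in these last sets ACKR2-/- array 1 overlapped the wild type arrays. The part of these cells in the members' values was not tested.

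**Figure D4:**
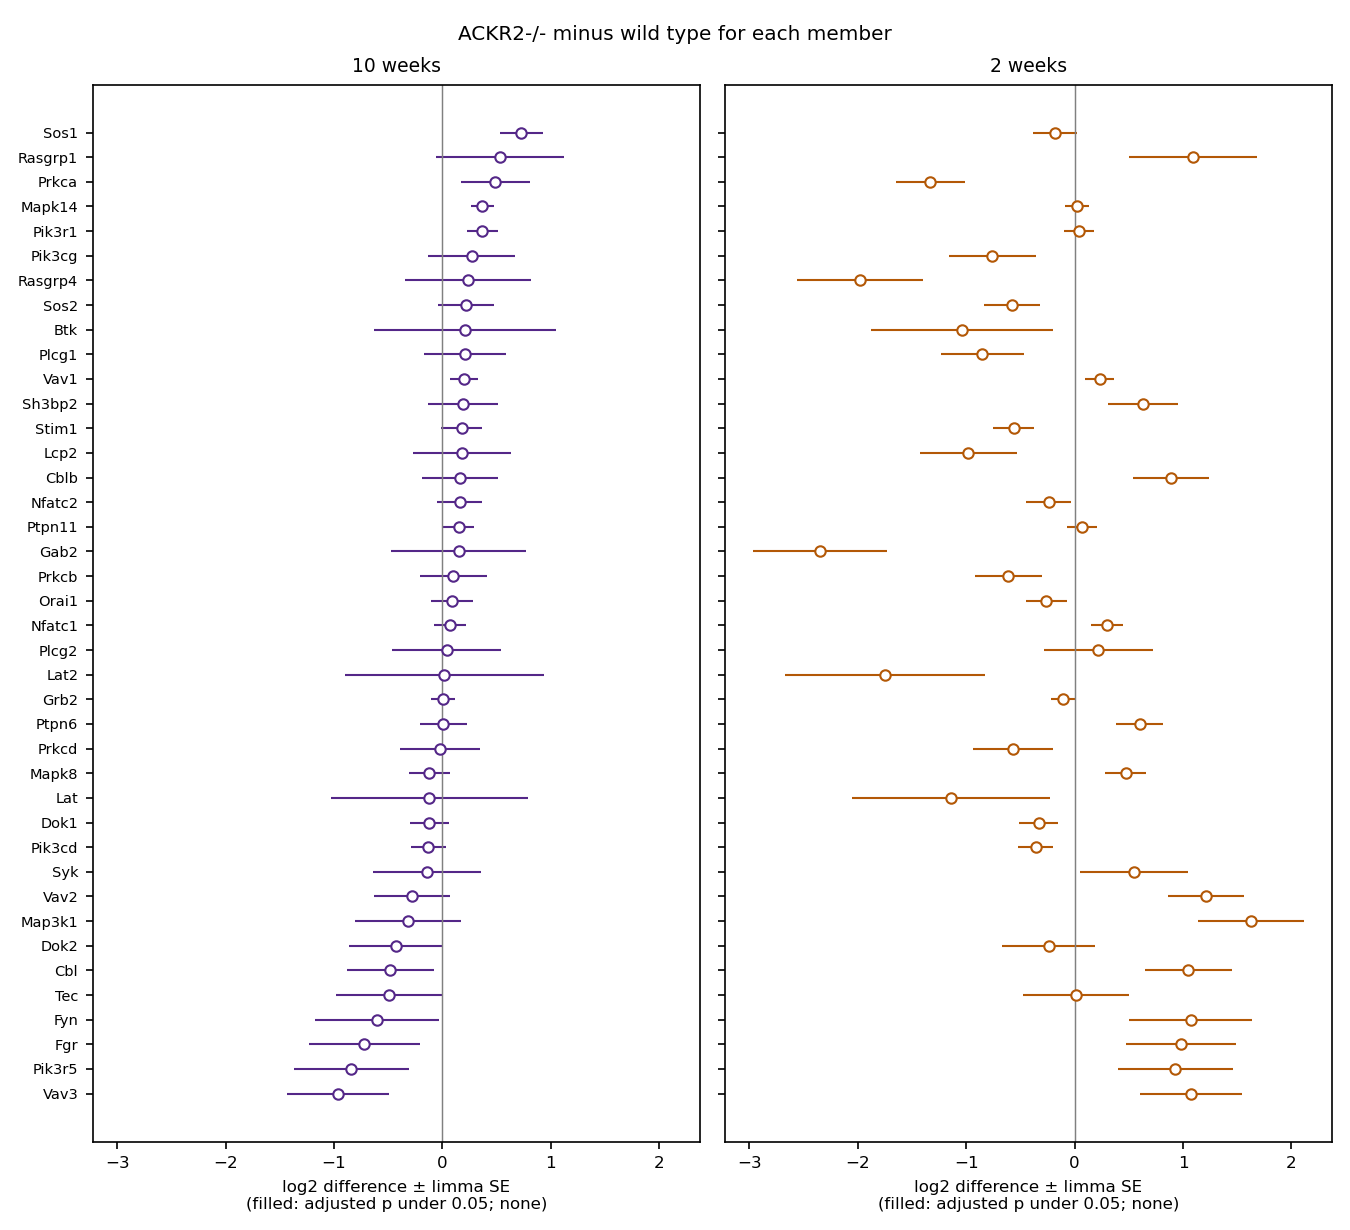
Log2 difference between ACKR2-/- and wild type arrays (± limma SE) for each of the 40 pathway genes at 10 weeks (left) and at 2 weeks (right), in the order of the 10-week difference. No gene passed the test at either week; the 10-week differences run from -0.96 to 0.73 and the 2-week differences from -2.35 to 1.63.

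At 2 weeks 0 of 40 members and 0.0% of all genes passed between ACKR2-/- and wild type arrays with limma, although the differences were wider. At an unadjusted p under 0.05 there were 13 members, and 3480 genes or 17.5%. Prkca measured 10.51, 10.49 and 9.72 on the ACKR2-/- arrays and 11.96, 12 and 10.76 on the wild type arrays (-1.33 ± 0.32, limma adjusted p = 0.225). Gab2 measured 9.17, 9.17 and 8.66 on the ACKR2-/- arrays and 12.24, 12.39 and 9.41 on the wild type arrays (-2.35 ± 0.62, adjusted p = 0.225). Vav2 measured 9.47, 9.48 and 10.75 on the ACKR2-/- arrays and 8.35, 8.36 and 9.34 on the wild type arrays (1.21 ± 0.35, adjusted p = 0.225). In all, 4 members lay above without overlap on the ACKR2-/- arrays (Sh3bp2, Vav2, Ptpn6 and Map3k1) and 4 below (Lcp2, Gab2, Plcg1 and Prkca), against 4.97% and 8.6% of all genes. In Prkca, Gab2 and Vav2 wild type array 3 lay closest to the ACKR2-/- arrays.

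Without wild type 2-week array 3, 23 members passed at 2 weeks, 12 higher and 11 lower on the ACKR2-/- arrays (23.8% of all genes). Gab2 then differed by -3.32 ± 0.16 (limma adjusted p = 2.16e-07), Rasgrp4 by -2.85 ± 0.25 (adjusted p = 2.2e-05) and Cblb by 1.39 ± 0.18 (adjusted p = 0.000322). Genotype cannot be told apart there from the Xist, Kdm5d, mast cell and lymphocyte marker differences of the same arrays. In the genotype by week interaction, the change with week on the ACKR2-/- arrays minus that on the wild type arrays, 0 of 40 members and 0.0% of all genes passed. At an unadjusted p under 0.05 there were 12 members, and 2271 genes or 11.4%. The lowest p among members belonged to Prkca (1.82 ± 0.45), Sos1 (0.90 ± 0.28) and Vav3 (-2.03 ± 0.67), each with a limma adjusted p of 0.424. Without wild type 2-week array 3, 18 members passed the interaction (15.7% of all genes).

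Paralogues and close relatives were set side by side by the change of the first gene minus the change of the second between 10 and 2 weeks, pooled over both genotypes. Of 15 pairs, 13 could be measured. None passed an exact two-sided permutation test of weeks within genotype after adjustment over the 13 pairs (400 arrangements, smallest possible p 0.005). Rasgrp1 minus Rasgrp4 changed most, by -3.55 (exact p = 0.01, adjusted p = 0.13), with -4.94 on the ACKR2-/- arrays and -2.16 on the wild type arrays. Relative to the wild type 10-week mean, this difference was 1.30, 0.11 and 5.06 on the wild type 2-week arrays. On the wild type 10-week arrays it was 1.12, -0.39 and -0.73. Vav1 minus Vav3 changed by 1.37 and Cbl minus Cblb by -0.70 (exact p = 0.035 for both), Vav1 minus Vav2 by 0.80 (exact p = 0.04) and Btk minus Tec by 1.25 (exact p = 0.05), all with an adjusted p of 0.13. Wild type 2-week array 3 lay apart from arrays 1 and 2 in Vav1 minus Vav3, Vav1 minus Vav2 and Btk minus Tec, but not in Cbl minus Cblb. The part of the 4 arrays low in Kit and Fcer1a in these pair changes was not tested.

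Lat and Lat2, the adaptor pair, had the widest spread of all pairs, 6.71 over the 12 arrays, and a direction that differed between arrays (-1.66, exact p = 0.2, adjusted p = 0.366). On ACKR2-/- 2-week array 3 Lat was at 8.59 and Lat2 at 11.53, while on arrays 1 and 2 Lat was at 12.92 and 12.90 and Lat2 at 9.26 and 9.20. All 6 10-week arrays had Lat between 12.46 and 12.73 and Lat2 between 13.02 and 13.17. Plcg1 minus Plcg2 spanned 4.20 over the 12 arrays and changed by 0.43 (exact p = 0.885, adjusted p = 0.885). Prkca minus Prkcb changed by 0.31 (exact p = 0.475, adjusted p = 0.561).

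**Figure D5:**
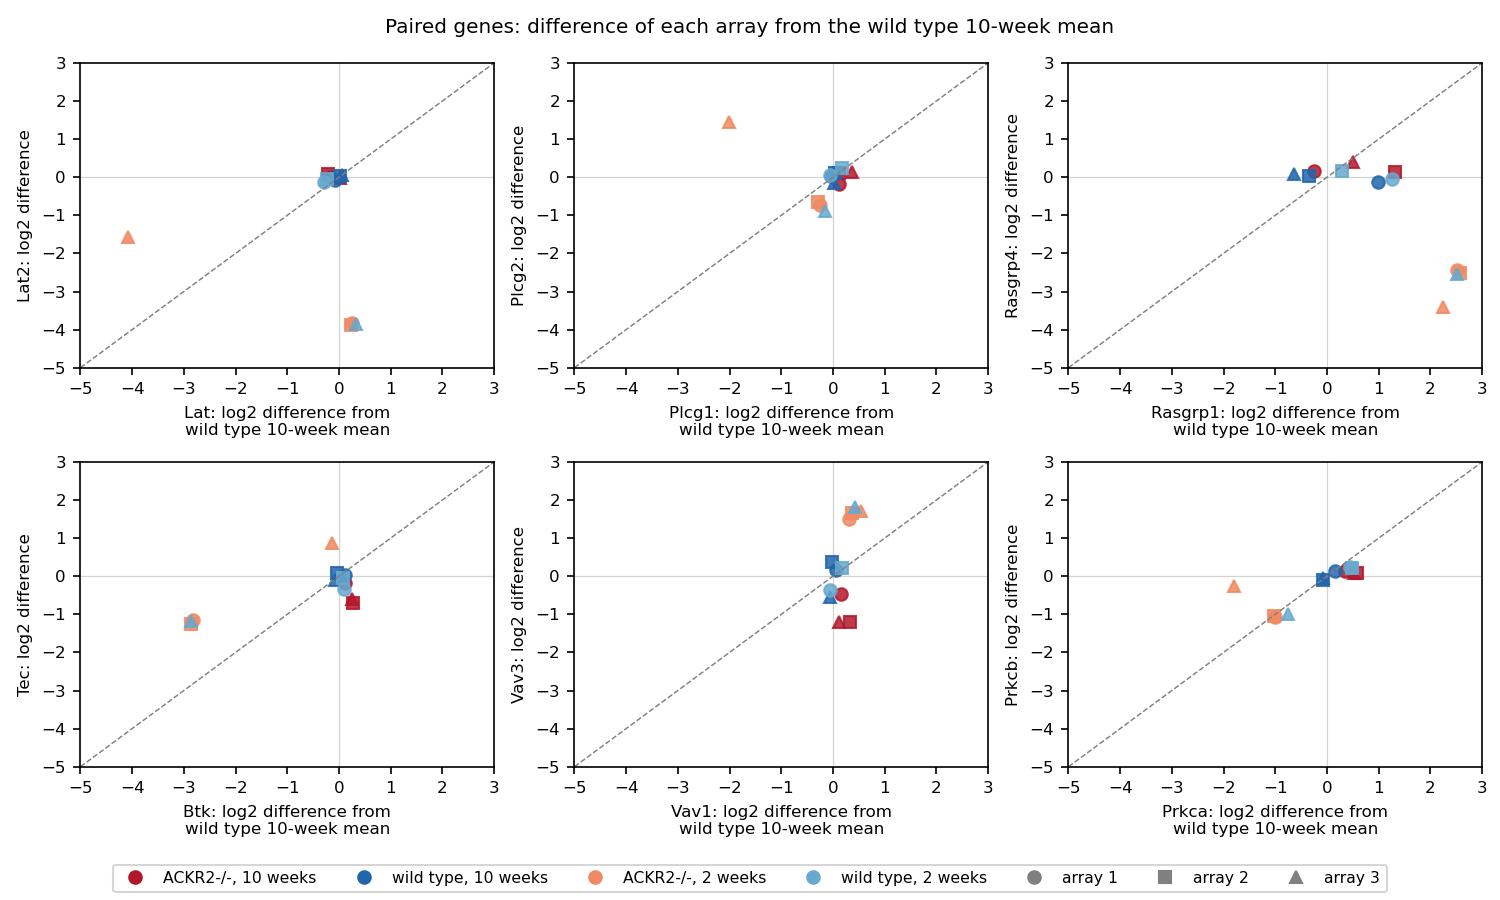
Each array's log2 difference from the wild type 10-week mean for 6 gene pairs, the first gene on the x axis and the second on the y axis, with the dashed line of equal change. The 10-week arrays cluster near 0 in the Lat and Lat2 panel, ACKR2-/- 2-week arrays 1 and 2 and wild type 2-week array 3 lie far below the line, and ACKR2-/- 2-week array 3 lies above it.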

How the data were processed

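The deposited values are log2 signals of 35399 probe sets, for which the authors used RMA and Partek 6.5, according to the submitters' processing notes. Target was made from 250 ng of total RNA. The genome build is not given in the sources used here. Array medians lay between 7.76 and 7.90, and no detection calls came with the values. The platform annotation gave 21789 probe sets 1 symbol, 1621 several and 11989 none. For 999 genes with several probe sets the one with the highest mean was kept, leaving 19938 genes.

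The limma package (3.58.1, R 4.3.3; lmFit and eBayes) was run over all 12 arrays with 1 mean for each group, and p-values were adjusted by Benjamini-Hochberg over all genes, with 0.05 as the threshold. Errors are limma standard errors. The fit was also run on simulated data, but the result of that run is not given here. No conclusion on how the fit behaves on these arrays is drawn from that run. The members and lists were chosen with earlier results of these data known. Every member could be named. Full values were given for the 12 largest calls of a comparison, or for the 3 lowest p-values where none passed, and for the 4 largest calls per direction among the further pathway genes, with the receptor chains always added. Other members were also given in full, chosen after their values were seen. Some of them describe single arrays, and Sos1, Cblb, Dok1 and Stim1 are smaller calls.

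Same-numbered wild type arrays of 10 and 2 weeks deviated together from their group means (r = 0.359, 0.203 and 0.166, other pairs at most 0.0232). In the other group pairs, same-numbered arrays did not deviate together in this way. A fit that took the wild type numbers as pairs was therefore added. Deviations within a group depend on each other, so these r values are not separate evidence and do not establish a pairing. Xist read 5.77 on wild type 2-week array 3 and 13.11 on wild type 10-week array 3. Alternatives were the compared groups alone, array weights, a trended robust prior, centring, quantile normalization, mean probe sets, a filter on dim genes, the replicate block and leaving out arrays.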

Additional observations from a re-analysis of the deposited data

How the results depend on the processing

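Leaving out 1 array at a time gave 0 to 23 called members and 0 to 4994 called genes between 10 and 2 weeks on the ACKR2-/- arrays, where 17 and 3358 were called with all arrays. It gave 0 to 1 members and 0 to 506 genes between the genotypes at 10 weeks, 0 to 23 and 0 to 4738 at 2 weeks, and 0 to 18 and 0 to 3138 in the interaction. The 1 member and the 506 genes came from the 10-week arrays fitted alone without ACKR2-/- array 1, which also drops the 2-week arrays. Among the fits that left out 1 array, the 10-week comparison gave 129 genes without ACKR2-/- array 1 and, within its own groups, 9 genes without wild type array 3. The 2-week comparison gave 1 gene without ACKR2-/- array 3, and the interaction gave 29 genes without ACKR2-/- 10-week array 1. Between 10 and 2 weeks on the ACKR2-/- arrays, 1514 genes were called without 2-week array 1 and 1391 without array 2. The wild type week comparison and the 13 pairs gave 0 calls throughout. For the pairs the few arrangements kept any single pair from passing alone, so no conclusion is drawn from those 0 calls. With array weights, 26 members and 9550 genes were called between weeks on the ACKR2-/- arrays, 29 and 9197 between the genotypes at 2 weeks, and 20 and 4136 in the interaction, but the weights did not converge and 1 array had a weight near 0. Without array 3 of both 2-week groups, chosen after seeing the data, the same counts were 28 and 5144, 24 and 4995, and 23 and 3984. Without the 4 arrays low in Kit and Fcer1a, also chosen after seeing the data, the genotypes at 10 weeks and the weeks in wild type gave 0 calls; the other comparisons lose a whole group. With the replicate block, 13 members were called between weeks on the ACKR2-/- arrays, and Dok1, Lat2, Rasgrp1 and Sos1 lost their call. The share of all genes called in that fit is not given here, so this loss cannot be read as particular to the members. The block changed no other member count, and in the wild type arrays alone, where the numbers were taken as pairs, it gave 0 calls. Of 582 repeats of 28 single results, 519 kept direction and side of the threshold, 45 lost and 18 gained a call, and 0 reversed; the cause was not tested. Groups of 3 arrays limit the precision, and signal over background is unknown.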
